A study of Mus musculus with 10 samples.

Results

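The genes described here are 7 genes of the growth plate programme of chondrocyte hypertrophy, namely Ihh, Pth1r, Mef2c, Runx3, Col10a1, Mmp13 and Panx3, taken by symbol from 35705 genes measured in mouse knee cartilage. The 7 symbols were matched to Ensembl mouse genes after the transcript abundances had been summed per gene. All of them were among the 13841 genes whose mean over the libraries reached 1 TPM, the minimum set for testing. TPM corrects abundance for transcript length and for the size of the library, so TPM levels can be compared between genes. The rule that names the genes uses no measured value, though it was written with earlier results of these data known, and each gene was tested singly.

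In the growth plate, chondrocytes stop dividing, enlarge and mineralise their matrix before bone replaces it. Prehypertrophic cells secrete Indian hedgehog, encoded by Ihh, which raises parathyroid hormone-related protein at the ends of the bone, and that protein acts through the receptor encoded by Pth1r to hold back hypertrophy. MEF2 and RUNX transcription factors drive the switch, type X collagen from Col10a1 marks the hypertrophic cell, and the collagenase encoded by Mmp13 breaks down its matrix. Several of these genes are not confined to hypertrophic cells: osteoblasts also express Pth1r, Mmp13 and Panx3, Mef2c is expressed in muscle, endothelium and B cells, and Runx3 in T and NK cells.

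RNA was sequenced from the medial knee cartilage caps of 10 mice, 1 library per mouse, 5 labelled wild-type control and 5 labelled Mir324-null, with no treatment in either group. The null mice lack the microRNA gene Mir324 in every tissue as far as the label says, and the age, sex, strain and batch of the mice are not given in the sources used here. The level of the microRNA is not analysed here, and the genotypes are taken from the labels unchecked. The series is titled as a study of how miR-324 acts on osteoblasts and osteoclasts to control bone mass, and the comparison made for these genes is between the null and the wild-type mice.

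Libraries held 13386 to 14299 genes at 1 TPM or more, and their read depth is unknown because TPM carries no counts. The labels give the tissue as articular cartilage and the cell type as chondrocyte. The 18 chondrocyte markers together reached 4136 to 11197 TPM in wild-type mice and 3715 to 5012 TPM in null mice, with Matn1 and Matn3 at 0 in at least 1 library. The largest parts were Prg4, Cytl1 and Chad, at wild-type means of 2902, 2427 and 761 TPM. Acan and Col2a1 had 146 and 91.4 TPM, and Prg4 is also on the fibroblast and synovial list. Blood and bone transcripts were also present: haemoglobin genes made up 11.2% to 19.7% of the TPM of wild-type and 15.8% to 26.1% of that of null libraries, and the 10 neutrophil markers summed to 56243 to 113514 TPM over all mice. Wild-type 1 stood apart on the first principal component, which held 26.7% of the variance, at -54.8 against -12.1 to 30.1 for the other 9 libraries. No gene passed an adjusted p of 0.05 between the genotypes (limma, Benjamini-Hochberg over 13841 genes, 0%; the smallest adjusted p was 0.277, and 0.399 by the exact permutation test), while at an unadjusted limma p under 0.05 there were 1011 genes lower and 592 higher in the null mice.

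The microRNA removed by the null allele gives a pair of mature strands, shown because their seeds, bases 2 to 8, were used to search for matches. The sequences are from RefSeq on GRCm38.p6, with the seed in capitals.
miR-324-5p: cGCAUCCCcuagggcauuggugu
miR-324-3p: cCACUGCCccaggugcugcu
These strands lie at chr11:70012060-70012082 and chr11:70012095-70012114 on the plus strand. Matches to the reverse complement of the seeds were searched in the annotated 3′ UTRs of all 7 genes (GENCODE M21, GRCm38). Only exact matches to the whole seed were counted, and shorter matches or matches in coding regions were not searched. A match to the miR-324-5p seed, GGGATGC, was found in none of the 7, against 8.50% of 12592 protein-coding genes. The miR-324-3p match, GGCAGTG, occurs in 15.4% of those genes and was found in 1 of the 7, Runx3. It lies at position 95 of the 2158-base 3′ UTR of Runx3-201, at chr4:135175912-135175936 on the plus strand, and is printed with its flanks, the seed match in capitals.
Runx3 site: ccaggggccagagctGGCAGTGgct
This match is not followed by an A. It is a match of letters only, and whether the strand pairs with it was not tested. The shares over all genes use the coding transcript with the longest annotated 3′ UTR of each gene. For Ihh, Pth1r, Mef2c, Col10a1, Mmp13 and Panx3 these longest 3′ UTRs were 774, 169, 4449, 1009, 1213 and 1172 bases long.

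Promoter windows running from 250 bases before to 50 bases after an annotated start (300 bases, RefSeq, GRCm38.p6) were searched on both strands for the RUNX core TGTGGT, since RUNX factors are known regulators of this programme, and for its longer form TGTGGTT, which contains it. The search also covered the GLI core GACCACC, the site of the factors that Ihh acts through, and the MEF2 site. Windows were matched for 6 of the 7 genes, 11 windows in all, and Panx3 had none. The RUNX core was in 16.8% of all 32851 windows and in 2 of the 11, those of Mmp13 and of the distal start of Runx3, which are shown with the longer form in capitals, here on the opposite strand as AACCACA.
Mmp13 promoter, chr9:7272264-7272563, plus strand: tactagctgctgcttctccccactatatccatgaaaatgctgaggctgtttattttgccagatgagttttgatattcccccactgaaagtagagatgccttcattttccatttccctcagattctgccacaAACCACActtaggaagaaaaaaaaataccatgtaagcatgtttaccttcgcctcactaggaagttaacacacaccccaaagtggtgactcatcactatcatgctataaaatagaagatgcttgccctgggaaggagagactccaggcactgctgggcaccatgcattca
Runx3 distal promoter, chr4:135120395-135120694, plus strand: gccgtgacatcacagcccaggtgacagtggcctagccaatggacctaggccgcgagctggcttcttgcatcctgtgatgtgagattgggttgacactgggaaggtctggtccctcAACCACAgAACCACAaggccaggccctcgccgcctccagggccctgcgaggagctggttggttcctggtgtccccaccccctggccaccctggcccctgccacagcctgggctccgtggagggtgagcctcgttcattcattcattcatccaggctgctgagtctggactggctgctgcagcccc
Col10a1 promoter, chr10:34389731-34390030, plus strand: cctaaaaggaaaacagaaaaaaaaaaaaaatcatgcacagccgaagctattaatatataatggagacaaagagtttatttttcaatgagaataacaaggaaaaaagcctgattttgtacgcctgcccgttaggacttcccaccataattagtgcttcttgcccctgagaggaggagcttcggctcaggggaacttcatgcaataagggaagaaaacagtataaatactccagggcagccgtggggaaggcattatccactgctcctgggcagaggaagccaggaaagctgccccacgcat
The Mmp13 match lies 119 bases before the start and the pair in the Runx3 window 135 and 127 bases before it. The longer form is in 5.27% of all windows. The Col10a1 window, printed beside them because Col10a1 and Mmp13 showed the largest differences below, holds no such letters. Neither the GLI core, which is in 2.80% of all windows, nor the MEF2 site, in 0.557%, was found in the 11 windows. No binding was measured, and the absence of these letters says nothing of sites outside the windows. Of the windows, 2 of Mef2c held only starts of transcripts with 0 TPM in all 10 libraries. Transcripts that start outside every window held a mean of 38.1% of Mef2c TPM and 60.2% of Ihh TPM.

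As levels in TPM over the 10 mice, the 7 genes ran in the order Col10a1 with a mean of 205.7, Mmp13 with 118, Pth1r with 37.2, Mef2c with 26.8, Runx3 with 8.74, Ihh with 3.53 and Panx3 with 1.41. Within libraries, Col10a1 was above Mmp13 in 9 of 10, although their ranges over the mice overlapped. Pth1r was above Mef2c in 7 of 10, also with overlapping ranges. Neither order held in every library, and neither was tested. Each of the other neighbours kept its order in 10 of 10 libraries, and the ranges of Mef2c and Runx3 did not overlap. Among all genes tested, the mean level of Col10a1 stood at the 96.3rd percentile and that of Mmp13 at the 93.5th, while Ihh stood at the 18.8th and Panx3 at the 4.78th. Transcripts of the matrix effectors were thus abundant and those of the signal and of the channel scarce in the same tissue. Spread within a genotype, as the coefficient of variation, was widest for Panx3, at 74.4% in wild-type and 62.3% in null mice. Col10a1 followed in wild-type mice at 55.6% but stood at 23.3% in null mice, below Mmp13 (27.6% and 41.0%), Ihh (50.1% and 35.9%) and Pth1r (33.7% and 31.3%). Runx3 (19.5% and 18.4%) and Mef2c (9.45% and 14.8%) varied least.

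**Figure D1:**
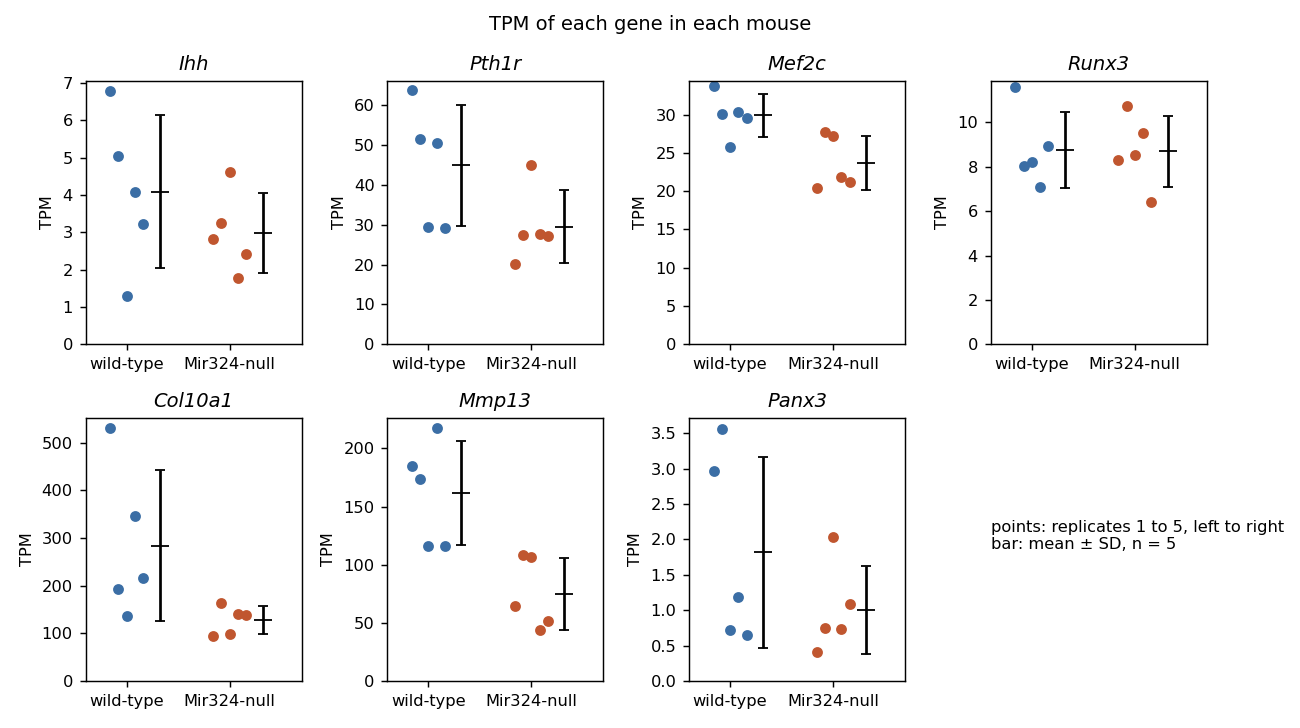
TPM of each of the 7 genes in each mouse, with wild-type mice in blue and Mir324-null mice in orange. Points are replicates 1 to 5 from left to right in each group, bars are the mean ± SD (n = 5), and each panel has its own axis from 0. The 5 null mice lie below all 5 wild-type mice for Mmp13, while the Runx3 groups overlap.

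None of the 7 genes passed an adjusted p of 0.05, as was true of all 13841 genes. All 7 estimates were below 0 in the null mice, with a median difference of -0.41 on log2(TPM + 1), where the median over all genes was -0.045 and 8307 of 13841 estimates were below 0. At an unadjusted limma p under 0.05, 4 of the 7 were lower (Mmp13, Col10a1, Mef2c and Pth1r) and 0 higher. Of all genes tested, 7.30% were lower and 4.28% higher by that measure. For 1 gene, Mmp13, the groups did not overlap, as they did not in the lower direction for 1.06% of all genes. The genes do not vary independently between mice, as described below, so these counts are not those of 7 separate observations. For other genes named below, p-values are from the two-sided exact permutation test and adjusted p-values from limma, while counts of genes use the unadjusted limma p. Fold changes are on the log2(TPM + 1) scale, which understates the difference of low genes such as Ihh and Panx3.

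**Figure D2:**
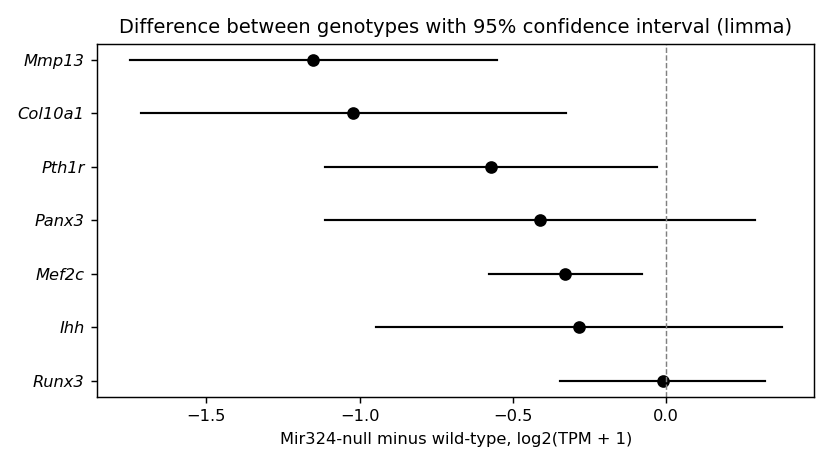
Difference in mean log2(TPM + 1), Mir324-null minus wild-type, for each gene (points), with the 95% confidence interval from limma (lines), over 5 mice per genotype. The intervals of Mmp13, Col10a1, Pth1r and Mef2c end below 0 before any adjustment, and those of Panx3, Ihh and Runx3 span 0.

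Ihh, the hedgehog ligand of the growth plate (ENSMUSG00000006538, chr1:74945315-74951672, minus strand), had 6.78, 5.05, 1.28, 4.09 and 3.23 TPM in wild-type mice 1 to 5. In null mice 1 to 5 it had 2.82, 3.24, 4.62, 1.76 and 2.43 TPM. All 5 null mice fell within the wild-type range, and wild-type 1 was the highest and wild-type 3 the lowest library. Mean levels were 4.08 ± 2.05 TPM (SD, n = 5) in wild-type mice and 2.97 ± 1.07 TPM in null mice. The difference was -0.28 on log2(TPM + 1) with a standard error of 0.303 (limma p = 0.366, adjusted p = 0.796 by Benjamini-Hochberg; two-sided exact permutation p = 0.437), smaller than the spread between mice. It depended on the low wild-type 3: without that mouse it was -0.55, with an unadjusted limma p of 0.0405, and without wild-type 1 it was -0.10.

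Of the Ihh abundance, kallisto assigned 59.6% ± 4.38 in wild-type and 60.7% ± 6.94 in null mice (SD, n = 5) to Ihh-202, annotated as a retained intron transcript. The coding transcript Ihh-201 thus had 1.71 ± 0.949 TPM in wild-type mice and 1.16 ± 0.387 TPM in null mice. Its difference was -0.27 on log2(TPM + 1) (exact permutation p = 0.333). The other hedgehog ligands were scarcer: Shh was listed at 0 in 6 of 10 libraries and did not exceed 0.0517 TPM, and Dhh did not exceed 0.391 TPM.

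Genes that carry or report the hedgehog signal were described from a list of 17 genes of the Hedgehog and PTHrP loop, of which 11 passed the TPM minimum. None of them had an unadjusted p under 0.05 in either direction, 10 of 11 estimates were below 0, and the median difference was -0.21. The count of estimates below 0 was 8 to 9 of 11 under the 3 other scalings. Ptch1, a receptor and itself a transcriptional target of the pathway, had 6.85 ± 1.95 TPM in wild-type mice and 5.63 ± 0.791 TPM in null mice (difference -0.22, exact permutation p = 0.254, limma adjusted p = 0.681). Gli1, the target most used as a readout, had 2.35 ± 1.34 against 2.16 ± 1.06 TPM (difference -0.079, exact permutation p = 0.817, limma adjusted p = 0.958), and under quantile normalization its difference was 0.0073. Smo, the transducer across the membrane, had 15.0 ± 4.25 against 11.4 ± 1.80 TPM and the smallest p of the list (difference -0.34, exact permutation p = 0.127, limma adjusted p = 0.495). The co-receptors Gas1 and Cdon had differences of -0.43 and -0.33, neither past an unadjusted p of 0.05. Hhip, a hedgehog-binding inhibitor and pathway target, was below the TPM minimum, at 0.771 ± 0.551 TPM in wild-type mice and 1.10 ± 0.725 TPM in null mice. So was Pthlh, which encodes parathyroid hormone-related protein, at 0.660 ± 0.350 and 0.841 ± 0.279 TPM. Gli3, the main repressor among the GLI factors, was also below the minimum, at 1.21 ± 0.326 TPM in wild-type mice and 0.667 ± 0.256 TPM in null mice, and was not tested. Of the 11 genes tested, none thus had a difference with an unadjusted limma p under 0.05, and the 95% interval of the Ihh difference, -0.95 to 0.38, leaves room for sizeable ones.

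Pth1r, the receptor for parathyroid hormone and its related protein (ENSMUSG00000032492, chr9:110722085-110747145, minus strand), had 63.9, 51.5, 29.5, 50.5 and 29.2 TPM in wild-type mice 1 to 5. The values in null mice 1 to 5 were 20.1, 27.3, 44.95, 27.7 and 27.3 TPM. Wild-type mice formed a high and a low set of values, with wild-type 3 and 5 near 29 TPM. Of the null mice, 4 lay below the lowest wild-type mouse, by little, and null 3 lay within the wild-type range. Mean levels were 44.9 ± 15.1 and 29.5 ± 9.22 TPM (SD, n = 5), a ratio of null to wild-type of 0.656. The difference was -0.57 with a standard error of 0.248 (limma p = 0.0404, adjusted p = 0.414; two-sided exact permutation p = 0.0556). Its limma p rose above 0.05 when any of 7 of the 10 mice was left out, and under each of the 3 other scalings (limma p of 0.0526 to 0.0795). Without wild-type 1 the difference was -0.43 (limma p of 0.102) and without null 3 it was -0.73 (limma p of 0.00957).

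Kallisto divided Pth1r mainly among 3 coding transcripts, Pth1r-204, Pth1r-201 and Pth1r-202, with mean shares of 43.2%, 39.5% and 15.1% in wild-type and 47.7%, 38.2% and 13.3% in null mice. The share of Pth1r-204 ran from 1.36% in null 2 to 64.8%, so the division was unsteady between mice. Pth1r-201, the steadiest of them, had 17.1 ± 4.16 TPM in wild-type mice and 11.1 ± 4.07 TPM in null mice. Its difference was -0.61 (limma p = 0.0360 before and 0.636 after adjustment over 31817 transcripts; exact permutation p = 0.0794). Pth1r-204 differed by -0.82 with a standard error of 0.756 (exact permutation p = 0.437). The opposite-strand gene Myl3 shares 95 exonic bases with Pth1r and had a mean of 0.319 TPM. Whether reads were assigned by strand is not given in the sources used here.

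Downstream of this receptor, a list of 21 genes of its G protein, cyclic AMP and arrestin signalling was measured in full. Of these, 2 were lower and 2 higher at an unadjusted p under 0.05, and the median difference was -0.031, close to that of all genes. Ramp3, a receptor-modifying membrane protein, had 1.76 ± 0.477 TPM in wild-type mice and 0.901 ± 0.351 TPM in null mice and its groups did not overlap (difference -0.54, exact permutation p = 0.00794, limma adjusted p = 0.338). Arrb1, encoding a beta-arrestin, had 61.6 ± 10.5 against 77.8 ± 5.67 TPM, also without overlap, and was the higher in null mice (difference 0.35, exact permutation p = 0.00794, limma adjusted p = 0.342). Sik1, a kinase inhibited by cyclic AMP signalling, differed by -0.30 (exact permutation p = 0.0238, limma adjusted p = 0.377) and the phosphodiesterase gene Pde3a by 0.35 (exact permutation p = 0.0397, limma adjusted p = 0.380). Gnas, which encodes the stimulatory G protein, had 508 ± 14.3 against 517 ± 17.5 TPM. The signalling genes therefore had no common direction: 12 of 21 estimates were below 0, and 6 of 21 after rescaling without haemoglobin genes.

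Mef2c, a transcription factor that activates Col10a1 and other hypertrophy genes (ENSMUSG00000005583, chr13:83504034-83667080, plus strand), had 33.7, 30.1, 25.8, 30.3 and 29.6 TPM in wild-type mice 1 to 5. In null mice 1 to 5 it had 20.5, 27.8, 27.2, 21.9 and 21.1 TPM. Values varied little, with a coefficient of variation of 9.45% in wild-type and 14.8% in null mice. Of the null mice, 3 lay below all wild-type mice, and null 2 and 3 lay above wild-type 3. Mean levels were 29.9 ± 2.82 and 23.7 ± 3.50 TPM (SD, n = 5), a ratio of 0.792. The difference was -0.33 with a standard error of 0.114 (limma p = 0.0139, adjusted p = 0.338; exact permutation p = 0.0238). It ranged from -0.39 to -0.28 when each mouse was left out in turn, and its unadjusted p stayed under 0.05 in each of those fits.

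Most Mef2c abundance was assigned to the coding transcript Mef2c-212, with a mean share of 59.8% in wild-type and 64.0% in null mice. This transcript alone had 17.9 ± 2.62 TPM in wild-type mice and 15.1 ± 1.82 TPM in null mice. Its difference, -0.23, had a limma p of 0.0910 (adjusted p = 0.715) and an exact permutation p of 0.0556. The remaining abundance was spread over transcripts whose wild-type means did not exceed 3.07 TPM, the mean of Mef2c-201.

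MEF2 family members share their DNA-binding domain and can pair with each other. Of the 4, 3 passed the TPM minimum, all with estimates below 0 under the 4 scalings, and 2 had an unadjusted p under 0.05. Mef2a had 36.1 ± 6.93 TPM in wild-type mice and 28.2 ± 4.47 TPM in null mice (difference -0.34, exact permutation p = 0.0476, limma adjusted p = 0.398). Mef2d had 29.3 ± 4.72 against 26.5 ± 6.51 TPM (difference -0.16, exact permutation p = 0.349). Hdac4, a deacetylase that binds and represses MEF2 factors and delays hypertrophy, had 7.36 ± 1.48 against 6.15 ± 1.23 TPM (difference -0.23, exact permutation p = 0.222).

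Runx3, a transcription factor that acts with Runx2 in chondrocyte maturation (ENSMUSG00000070691, chr4:135120652-135177990, plus strand), had 11.6, 8.03, 8.23, 7.08 and 8.92 TPM in wild-type mice 1 to 5. Null mice 1 to 5 had 8.29, 10.7, 8.55, 9.52 and 6.41 TPM. The groups overlapped almost wholly, with 4 null mice inside the wild-type range and null 5 below it. Mean levels were 8.77 ± 1.71 and 8.70 ± 1.6 TPM (SD, n = 5). The difference was -0.011 with a standard error of 0.153 (limma p = 0.943, adjusted p = 0.989; exact permutation p = 0.921). Its 95% interval, -0.35 to 0.32, is the range of differences these 10 mice allow, and the estimate was above 0 under the 3 other scalings, at 0.038 to 0.071. Runx3 is also the gene with the seed match printed above, and its difference was the smallest of the 7. Whether the microRNA acts on Runx3 was not tested.

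Runx3 has a distal and a proximal start, and their transcripts are told apart in the table. Runx3-201, which begins at the distal start whose promoter is printed above, held 83.8% of the gene's TPM in wild-type mice and 83.7% in null mice. It had 7.28 ± 0.868 TPM in wild-type mice and 7.17 ± 0.874 TPM in null mice, a difference of -0.019. Runx3-202, from the proximal start, held 11.8% and 11.5%. Neither the level nor the division between starts differed beyond the spread between mice (exact permutation p = 0.976 for the share of Runx3-201). The distal start is also active in T and NK cells, whose 12 markers summed to 106 to 188 TPM in wild-type mice and 97.7 to 150.0 TPM in null mice. Most of that sum was Nkg7, at 96.3 ± 23.4 TPM in wild-type mice and 89.3 ± 27.5 TPM in null mice. The next highest value of these markers in any library was 12.2 TPM, of Gzma, so the sum is largely that of 1 gene. The part of such cells in the Runx3 level was not tested.

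In the RUNX list, 6 of 7 genes passed the TPM minimum, 1 was lower at an unadjusted p under 0.05 and the median difference was -0.086. Runx2, the main driver of hypertrophy and of osteoblasts, had 15.5 ± 3.92 TPM in wild-type mice and 12.8 ± 2.85 TPM in null mice (difference -0.25, exact permutation p = 0.317, limma adjusted p = 0.690). Runx1 had 18.8 ± 1.87 against 16.8 ± 3.12 TPM (difference -0.16, exact permutation p = 0.254). Cbfb, the partner that stabilises RUNX proteins on DNA, had 62.3 ± 9.6 against 47.8 ± 10.9 TPM (difference -0.39, exact permutation p = 0.0714, limma adjusted p = 0.388).

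In a list of transcription factors and regulators of hypertrophy, which holds Cbfb, Runx2, Mef2a, Mef2d and Hdac4 from above, 17 of 20 passed the TPM minimum, of which 6 were lower and 1 higher at an unadjusted p under 0.05. Their median difference was -0.31, and 16 of 17 estimates were below 0 under the 4 scalings, with 2 rather than 6 lower at that p after rescaling without haemoglobin genes. Sox6, which acts with Sox9 in early chondrocytes, was the gene above 0, at 17.6 ± 5.84 TPM in wild-type mice and 24.4 ± 2.002 TPM in null mice (difference 0.49, exact permutation p = 0.0397, limma adjusted p = 0.342). Among wild-type mice Sox6 was lowest in wild-type 1 (12.4 TPM) and highest in wild-type 3 (27.1 TPM). The mean log2(TPM + 1) of the erythroid markers given below was also lowest and highest in those mice. All 10 erythroid markers had estimates above 0, and which cells the Sox6 RNA came from was not tested. Sox9 itself, the master factor of chondrocytes, had 10.1 ± 5.73 against 5.46 ± 0.804 TPM (difference -0.66, exact permutation p = 0.0635, limma adjusted p = 0.382). Dlx5, a homeobox gene of chondrocytes and osteoblasts, had 20.04 ± 7.44 against 12.4 ± 4.11 TPM (difference -0.63, exact permutation p = 0.0873, limma adjusted p = 0.395).

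Col10a1, the type X collagen gene that marks hypertrophic chondrocytes (ENSMUSG00000039462, chr10:34389981-34397085, plus strand), had 530.8, 192, 136, 347 and 216 TPM in wild-type mice 1 to 5. Null mice 1 to 5 had 94.4, 163, 98.7, 141 and 138 TPM. Wild-type values were widely spread, with wild-type 1 far above the others, and null values were closer together. Of the null mice, 2 lay below the lowest wild-type mouse and 3 within the wild-type range, and all 5 were below the wild-type mean. Mean levels were 284 ± 158 and 127 ± 29.6 TPM (SD, n = 5), a ratio of 0.447. The difference was -1.02 with a standard error of 0.317 and a 95% interval of -1.71 to -0.33 (limma p = 0.00757, adjusted p = 0.319; exact permutation p = 0.0317). In the order of unadjusted p it ranked 327 of 13841. Without wild-type 1 the difference was -0.75 (the smallest of the 10 such fits), and the limma p over those fits was 0.00121 to 0.0212.

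Type X collagen has 1 transcript in the table, so its value is not divided. Its gene lies within the opposite-strand gene Nt5dc1, with 18 shared exonic bases, and Nt5dc1 had a mean of 11.9 TPM. Of the 3 network-forming collagens listed, Col8a1 was also lower, at 8.58 ± 2.33 TPM in wild-type mice and 4.31 ± 1.23 TPM in null mice (difference -0.84, exact permutation p = 0.0159, limma adjusted p = 0.277). Col8a2 had 3.43 ± 2.04 against 3.01 ± 1.16 TPM (difference -0.096).

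Mmp13, a collagenase of terminal hypertrophic chondrocytes and of osteoblasts (ENSMUSG00000050578, chr9:7272514-7283331, plus strand), had 185, 174, 116, 218 and 116 TPM in wild-type mice 1 to 5. In null mice 1 to 5 it had 64.2, 108, 107, 43.6 and 51.5 TPM. Every null mouse was below every wild-type mouse, although null 2 and 3 were close to wild-type 3 and 5. Mean levels were 161.6 ± 44.6 and 74.9 ± 30.7 TPM (SD, n = 5), a ratio of 0.463. The difference was -1.15 with a standard error of 0.274 and a 95% interval of -1.75 to -0.55 (limma p = 0.00131, adjusted p = 0.277; exact permutation p = 0.00794). That permutation p is the smallest that 5 mice against 5 can give. It ranked 55 of 13841 by unadjusted p, and the difference stayed between -1.31 and -0.98 when each mouse was left out in turn. Mmp13 also has 1 transcript in the table.

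Of 21 matrix metalloproteinases and their inhibitors, 17 passed the TPM minimum. Counting Mmp13, 5 were lower and 1 higher at an unadjusted p under 0.05, with a median difference of -0.28. Mmp14, which activates other metalloproteinases at the cell surface, had 64.5 ± 16.7 TPM in wild-type mice and 38.7 ± 14.3 TPM in null mice (difference -0.75, exact permutation p = 0.0317, limma adjusted p = 0.319). Mmp16, a membrane-bound relative, had 2.93 ± 0.432 against 1.59 ± 0.540 TPM and its groups did not overlap (difference -0.62, exact permutation p = 0.00794, limma adjusted p = 0.297). Mmp3, stromelysin, ran the other way without overlap, at 0.866 ± 0.516 TPM in wild-type mice and 2.30 ± 1.32 TPM in null mice (difference 0.79, exact permutation p = 0.00794, limma adjusted p = 0.325). Mmp9, the gelatinase of osteoclasts and neutrophils, had 729 ± 174 against 556 ± 91.2 TPM (difference -0.38, exact permutation p = 0.0794, limma adjusted p = 0.399).

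Other genes of terminal hypertrophy and mineralisation were counted beside Col10a1 and Mmp13. Of 23 listed, Mmp14 among them, 21 passed the TPM minimum, 8 were lower and 0 higher at an unadjusted p under 0.05, 19 estimates were below 0 and the median difference was -0.26. Under each of the 3 other scalings 6 were lower at that p. Spp1, which encodes osteopontin, had 1832 ± 582 TPM in wild-type mice and 958 ± 225 TPM in null mice (difference -0.90, exact permutation p = 0.0238, limma adjusted p = 0.283). Scin, an actin-severing protein of hypertrophic cells, had 15.7 ± 7.10 against 8.38 ± 1.34 TPM (difference -0.75, exact permutation p = 0.0317, limma adjusted p = 0.324). Sgms2, a sphingomyelin synthase of mineralising tissue, had 47.4 ± 5.74 against 35.0 ± 7.95 TPM (difference -0.45, exact permutation p = 0.0238, limma adjusted p = 0.350). Spp1 and others on this list are also expressed by osteoblasts and osteoclasts, whose markers are given below.

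Panx3, a pannexin channel of prehypertrophic chondrocytes and osteoblasts (ENSMUSG00000011118, chr9:37659902-37669235, minus strand), had 2.97, 3.56, 0.718, 1.18 and 0.656 TPM in wild-type mice 1 to 5. The values in null mice 1 to 5 were 0.411, 0.744, 2.03, 0.733 and 1.09 TPM. Wild-type 1 and 2 and null 3 were high and the other 7 libraries low, so both genotypes held high and low values. Mean levels were 1.82 ± 1.35 and 1.001 ± 0.624 TPM (SD, n = 5). The difference was -0.41 with a standard error of 0.321 (limma p = 0.224, adjusted p = 0.687; exact permutation p = 0.278). With a pseudocount of 0.1 in place of 1 it was -0.66, still with an unadjusted p above 0.05. At these levels the scale matters, since Panx3 stood near the TPM minimum.

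Of 6 pannexins and connexins listed, 4 passed the TPM minimum and 1 was lower at an unadjusted p under 0.05. That was Gja1, the connexin of osteoblasts and osteocytes, at 93.1 ± 21.4 TPM in wild-type mice and 52.9 ± 16.2 TPM in null mice (difference -0.83, exact permutation p = 0.0238, limma adjusted p = 0.283). Panx1, the widely expressed pannexin, had 16.4 ± 1.25 against 18.9 ± 2.49 TPM (difference 0.19, exact permutation p = 0.0873). Under median ratio scaling and rescaling without haemoglobin genes the Panx1 difference was 0.24 and 0.28, with unadjusted limma p of 0.0443 and 0.0253. The signs of Panx1 and Panx3 were thus opposite, and whether the 2 differences differ from each other was not tested.

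At the level of single transcripts, none of 31817 passed an adjusted p of 0.05 (limma, 0%). Of 16 transcripts of the 7 genes in that fit, 3 were lower at an unadjusted p under 0.05 (Col10a1-201, Mmp13-201 and Pth1r-201), against 4.14% of all transcripts. Col10a1 and Mmp13 have 1 transcript each, so their transcript values repeat the gene values by construction. Pth1r-201 is a part of the Pth1r value, so the count of 3 is not separate from the gene fit.

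Variation between mice was partly shared by the 7 genes, least by Runx3. Over the 10 libraries all 21 pairs had a Pearson r above 0 on log2(TPM + 1), from 0.132 to 0.917 with a median of 0.652, and 7 pairs had a permutation p under 0.05 after Benjamini-Hochberg adjustment over the 21. After the genotype means were removed, all 21 stayed above 0 with a median of 0.545, so these signs did not rest on the difference between genotypes. Mef2c and Mmp13 were the closest pair (r = 0.917, permutation p = 0.000640, adjusted p = 0.00840; rho = 0.903, permutation p = 0.000730, adjusted p = 0.0153). Their r was 0.906 without the 2 libraries farthest from the median of Mef2c, and 0.811 within genotypes. Pth1r and Panx3 followed (r = 0.880, permutation p = 0.000800, adjusted p = 0.00840; rho = 0.745, permutation p = 0.0173, adjusted p = 0.0454), with 0.812 without the 2 farthest libraries and 0.876 within genotypes.

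Col10a1 and Mmp13, the genes with the largest differences, were less closely tied to each other (r = 0.691, permutation p = 0.0258, adjusted p = 0.0541; rho = 0.745, permutation p = 0.0169, adjusted p = 0.0454). Their r was 0.435 without wild-type 1 and 4 and 0.329 within genotypes. The relation therefore rests in part on those 2 mice and on the genotypes. Runx3 stood apart from the rest: its 6 pairs had r between 0.132 and 0.403, and without the 2 farthest libraries 5 of the 6 were below 0. All these correlations share the same libraries and their fixed TPM total.

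**Figure D3:**
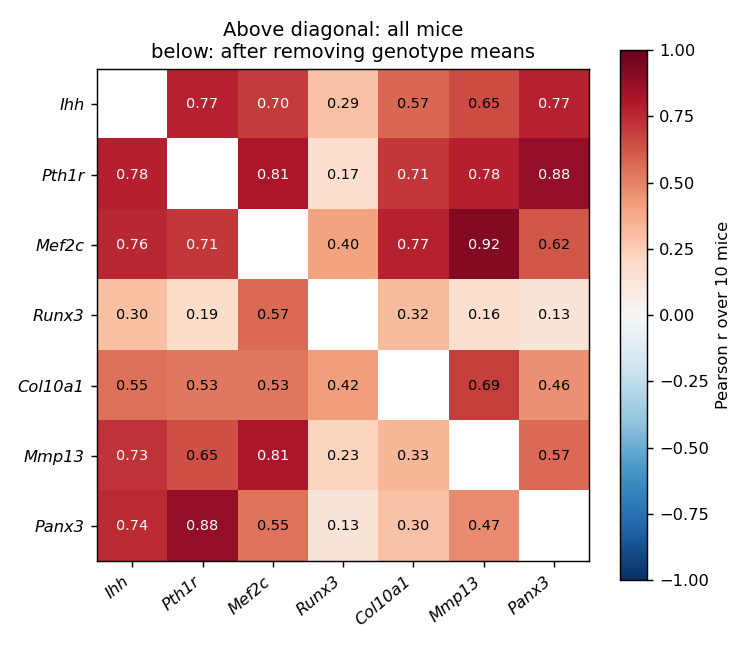
Pearson r of log2(TPM + 1) over 10 mice for each pair of the 7 genes, above the diagonal with all mice as measured and below it after removing the mean of each genotype. Colours run from -1 (blue) to 1 (red); above the diagonal the 6 Runx3 cells are the palest, and Mef2c with Mmp13 the deepest.

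To show what else followed each gene, the 3 protein-coding genes with the highest r over the 10 libraries, of 12679 compared, were named as a description with no test. Ihh was most like Adamts15 (r = 0.969), Gm17455 (0.959) and Bmp8a (0.952), and Pth1r most like Metrnl (0.991), Clec11a (0.989) and Efemp2 (0.983). Mef2c was most like Irs1 (0.978), Ptprd (0.977) and Flrt2 (0.975), and Mmp13 most like Rgs5 (0.978), Flrt2 (0.978) and Tspan7 (0.974). Col10a1 was most like Smoc2 (0.988), Col9a2 (0.977) and Scrg1 (0.970), of which Col9a2 is a cartilage collagen and one of the chondrocyte markers. Runx3 was most like Irak1 (0.957), Slc19a2 (0.953) and Ankmy2 (0.951), and Panx3 most like Tmem176b (0.937), Tpm1 (0.936) and H2-DMb1 (0.928). No gene of the 7 was among the 3 nearest of another.

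Markers of the cell types a cartilage cap can hold had estimates in both directions between genotypes. The mean log2(TPM + 1) of each list was compared by the exact permutation test, with Benjamini-Hochberg adjustment over 11 lists. None passed an adjusted p of 0.05. The smallest, 0.0873, was shared by the chondrocyte, osteoblast and osteocyte, osteoclast, erythroid, endothelial and adipocyte lists. Bulk tissue cannot tell fewer cells of a type from less RNA per cell. Chondrocyte markers had 9 of 14 measured genes lower and 0 higher in null mice at an unadjusted p under 0.05, with a median difference of -0.67. Osteoblast and osteocyte markers had 9 of 12 lower (median -0.90), with sums of 6129 to 14678 TPM in wild-type mice and 3484 to 7182 TPM in null mice. Osteoclast markers had 7 of 7 lower (median -0.96), with sums of 1438 to 3252 and 944 to 1940 TPM. Erythroid markers had 7 of 10 higher (median 0.48), with sums of 112743 to 198979 and 159389 to 263795 TPM. Without haemoglobin genes in the total, the chondrocyte count was 7 of 14 and the osteoclast count 6 of 7, while 9 of 12 osteoblast and osteocyte markers stayed lower. Under median ratio scaling 5 of 10 erythroid markers were higher. None of these marker genes passed an adjusted p of 0.05, and their part in the differences of the 7 genes was not tested beyond the covariate fits below.

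Of the other cell types, B lineage markers, of interest for Mef2c, had 5 of 10 lower (median -0.45) and 1 to 4 of 10 under the other scalings, at 505 to 626 TPM in wild-type mice and 276 to 550.1 TPM in null mice. Endothelial markers had 3 of 8 lower (median -0.21), at 94.97 to 119 and 69.2 to 101 TPM. Adipocyte markers had 4 of 6 lower (median -0.57), or 2 to 3 of 6 under the other scalings, and fibroblast and synovial markers 1 of 9 higher (median 0.46). Neutrophil markers and T and NK markers had 0 in either direction (medians -0.034 and -0.025, both above 0 under the 3 other scalings). Of the 10 skeletal muscle markers 3 passed the TPM minimum and none had an unadjusted p under 0.05, with Myh2 at 0 in all libraries. The sums were 15.0 to 18.1 TPM in wild-type mice and 15.7 to 63.8 TPM in null mice.

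A score per mouse, the mean log2(TPM + 1) of a marker list, was set against each of the 7 genes in 77 relations over 10 mice. Col10a1 followed the chondrocyte score most closely (r = 0.920, permutation p = 0.000600, adjusted p = 0.00660; rho = 0.830, permutation p = 0.00467, adjusted p = 0.0277), with r = 0.866 within genotypes. Without wild-type 1 and 4 that r was 0.635, so part of it rests on those mice. Mmp13 had its highest r with the osteoclast score (r = 0.924, permutation p = 0.000440, adjusted p = 0.00565; rho = 0.806, permutation p = 0.00668, adjusted p = 0.0313) and kept r = 0.909 without null 4 and 5. Its r was 0.922 with the endothelial score, 0.868 with the osteoblast and osteocyte score, 0.809 with the chondrocyte score and 0.785 with the adipocyte score. The relation was thus not particular to osteoclast markers. Mef2c followed the osteoblast and osteocyte score (r = 0.922, permutation p = 8.0e-05, adjusted p = 0.00257; rho = 0.891, permutation p = 0.00123, adjusted p = 0.0135) and had r = 0.836 without null 1 and 5. Pth1r had its highest r with the osteoclast score (r = 0.917, permutation p = 9.0e-05, adjusted p = 0.00257; rho = 0.927, permutation p = 0.000370, adjusted p = 0.00950), with r = 0.857 without wild-type 1 and 2. With the chondrocyte, osteoblast and osteocyte, and adipocyte scores the r of Pth1r was 0.879, 0.864 and 0.838, so this relation was not particular either. Mef2c was also close to the chondrocyte score (r = 0.879, permutation p = 0.000290, adjusted p = 0.00447; rho = 0.988, permutation p = 1.0e-05, adjusted p = 0.000770), the highest rho of the 77 relations, with r = 0.821 without null 1 and 5. With the osteoclast, endothelial and adipocyte scores the r of Mef2c was 0.877, 0.858 and 0.792, so its relations were not particular to bone or cartilage markers. With the B lineage score it was 0.651 (permutation p = 0.0414, adjusted p = 0.109), and 0.364 within genotypes. Against the erythroid score Mef2c had r = -0.83 (permutation p = 0.00335, adjusted p = 0.0215) and rho = -0.81 (permutation p = 0.00684, adjusted p = 0.0313), with r = -0.86 without null 1 and 5 and -0.61 within genotypes. Col10a1 had r = -0.77 with that score (permutation p = 0.00816, adjusted p = 0.0361) and rho = -0.72 (permutation p = 0.0228, adjusted p = 0.0763), with r = -0.75 without wild-type 1 and 4 and -0.52 within genotypes. Mmp13 had r = -0.75 (permutation p = 0.0131, adjusted p = 0.0481) and rho = -0.83 (permutation p = 0.00439, adjusted p = 0.0277), with r = -0.55 without null 4 and 5 and -0.37 within genotypes, so these relations were weaker among mice of 1 genotype. No relation of Runx3 had a permutation p under 0.05 before adjustment.

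**Figure D4:**
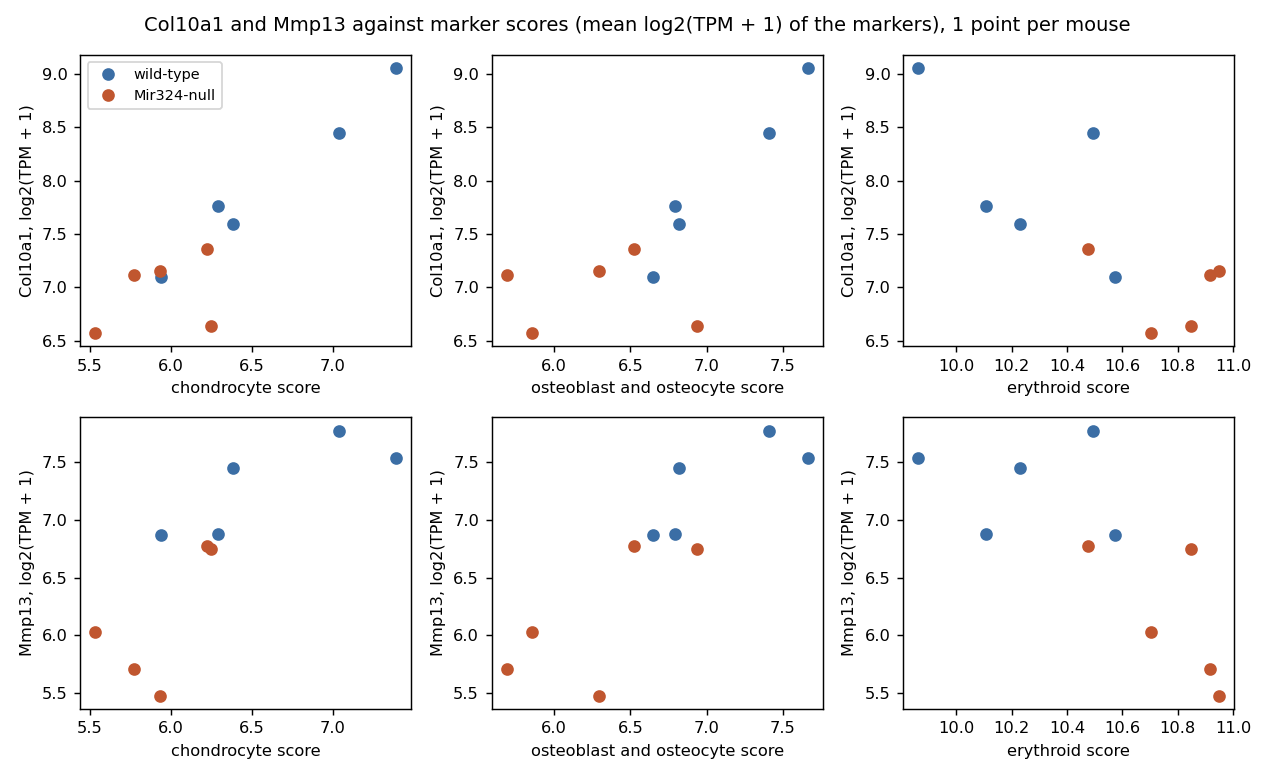
Col10a1 (top) and Mmp13 (bottom), as log2(TPM + 1), against the chondrocyte, osteoblast and osteocyte, and erythroid scores, each the mean log2(TPM + 1) of the markers, with 1 point per mouse (blue wild-type, orange Mir324-null). Both genes are high where the first 2 scores are high, and low where the erythroid score is high.

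With a marker score as a covariate in the limma fit, the differences between genotypes were smaller for the genes that were lower. For Mmp13 the difference was -0.67 with the chondrocyte score (limma p of 0.0340), -0.52 with the osteoblast and osteocyte score (limma p of 0.0878) and -0.75 with the erythroid score (limma p of 0.101). Col10a1 differed by -0.29, -0.45 and -0.36 in the same fits (limma p of 0.211, 0.263 and 0.438), and Mef2c by -0.14, -0.084 and -0.11 (limma p of 0.257, 0.486 and 0.502). Pth1r differed by -0.046, 0.038 and -0.38 (limma p of 0.824, 0.871 and 0.362). Ihh and Runx3 had estimates above 0 in all 3 fits. Of the 4 genes with an unadjusted p under 0.05, 1 therefore kept it with the chondrocyte score and 0 with each of the other scores. Of all 13841 genes tested, 1011 were lower at that p with no score in the fit. With the chondrocyte, osteoblast and osteocyte, and erythroid scores the count was 163, 127 and 139. The loss was thus not particular to these 4 genes. The 3 scores also had unequal means in the genotypes (exact permutation p of 0.0397, 0.0397 and 0.0238, adjusted p of 0.0873 each). These fits therefore cannot tell a difference in the gene from one in the markers.

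**Figure D5:**
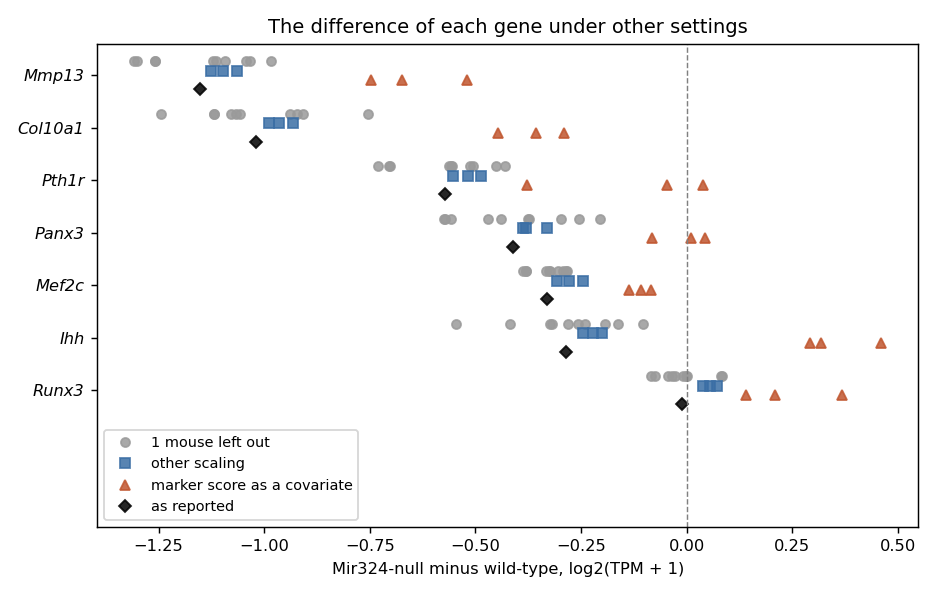
Difference between genotypes for each gene in log2(TPM + 1), Mir324-null minus wild-type, as reported (black diamonds), with 1 mouse left out (grey circles), under 3 other scalings (blue squares) and with 1 of 3 marker scores as a covariate (orange triangles). Mmp13 and Col10a1 stay below 0 in all of them, with the covariate fits nearest to 0 in each case, and Runx3 lies on both sides of 0.

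Relative to the chondrocyte score of the same mouse, the 7 genes did not share a direction. Col10a1 stood 1.38 ± 0.202 log2 units above that score in wild-type and 1.03 ± 0.372 above it in null mice (SD, n = 5), a difference of -0.35 and 5 of 5 null mice lay under the mean of the wild-type mice. Mmp13 stood 0.692 ± 0.358 and 0.208 ± 0.446 above it, a difference of -0.48, again with 5 of 5 null mice under that mean. The other 5 genes had differences above 0, from 0.096 for Pth1r to 0.66 for Runx3. Relative to the osteoblast and osteocyte score, Col10a1 and Mmp13 again differed by -0.22 and -0.35, with 4 of 5 null mice under the wild-type mean for each, and the other 5 by more than 0. Each value is the gene's own difference less that of the score, which was -0.67 for chondrocyte and -0.80 for osteoblast and osteocyte markers. A gene that fell by less than the score therefore comes out above 0, and the split restates the gene differences. These values are descriptions, since a score and a gene on a log scale with a pseudocount need not move in step.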

How the data were processed

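RNA-seq libraries of 10 mice were compared, 5 wild-type and 5 Mir324-null. The authors deposited 1 table of TPM values per Ensembl mouse transcript, with 116912 transcripts and 1 column per mouse. The submitters' processing notes name kallisto, with no version, and the build GRCh38, which is human while the identifiers are mouse; the mouse index is not given in the sources used here. TPM fixes every library to 1 total, so an abundant transcript lowers all others, and depth is unknown, so no counting interval was computed.

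Transcript versions were dropped and 115440 transcripts matched GENCODE M21 (GRCm38); the 1472 others held 0.275% to 0.356% of TPM. TPM was summed per gene, and log2(TPM + 1) of the genes reaching a mean of 1 TPM was fitted with limma 3.58.1 (R 4.3.3; lmFit, eBayes with trend, two-sided, Benjamini-Hochberg, threshold 0.05). The procedure was tested on data simulated with genes independent of each other. The measured genes vary together between mice, so that test does not cover this feature of the data. Exact permutation tests used the 252 splits, and correlations 100000 resamples (scipy 1.17.1, numpy 2.4.6). No label says that the mice came from separate litters or batches, so p-values measure only the spread between these libraries.

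The genes and lists were chosen with earlier results of these data known. Genes named singly were the 7 genes, the 3 genes most correlated with each, up to 4 genes per list with the smallest unadjusted p, and textbook partners of the 7 (Pthlh, Ptch1, Gli1, Hhip, Runx2, Cbfb, Mef2a, Mef2d, Hdac4, Panx1 and Sox9). Of the list genes named beyond that rule, Gnas, Gli3, Runx1, Mmp9, Dhh, Shh, Col8a2, Nkg7 and Gzma were chosen after their values were seen. Promoters and mature microRNAs are from RefSeq. Alternatives covered the pseudocount, the TPM minimum, 3 scalings, the trend, the test, marker covariates, a replicate block, single transcripts and leaving out each mouse. Replicate numbers do not pair the mice by any label, and 0 columns belonged to other samples.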

Additional observations from a re-analysis of the deposited data

How the results depend on the processing

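The 7 differences kept their sign under the other pseudocounts, TPM minimums, trend and test, except that Ihh and Panx3 drop out at a mean of at least 5 TPM. No alternative brought any of the 7 to an adjusted p of 0.05: the adjusted limma p ranged from 0.125 to 0.999 for Mmp13, 0.127 to 0.999 for Col10a1, 0.204 to 0.999 for Mef2c and 0.222 to 0.999 for Pth1r. The cause of the following moves was not tested.

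Runx3 was above 0 under median ratio scaling (0.038), quantile normalization (0.055) and rescaling without haemoglobin genes (0.071), with the chondrocyte, osteoblast and osteocyte, and erythroid scores as covariates (0.14, 0.21 and 0.37), and without wild-type 1 (0.085), null 1 (0.00015) or null 5 (0.082). Those scores also put Ihh above 0 (0.29, 0.32 and 0.46). With the chondrocyte and the osteoblast and osteocyte scores Panx3 was at 0.0098 and 0.043, and with the latter Pth1r at 0.038.

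Genes at an unadjusted p under 0.05 were 1216 higher and 577 lower without haemoglobin genes, 875 and 888 under median ratio scaling, and 884 and 929 under quantile normalization. With the chondrocyte score they were 333 and 163, with the osteoblast and osteocyte score 479 and 127, and with the erythroid score 1008 and 139, where the median of all genes moved to 0.13. Of the 7 genes, 1, 0 and 0 were then lower at that p. An adjusted p under 0.05 was reached by 1 gene in each of 5 fits, named after their values were seen: Gm11189 with the chondrocyte score, Has1 with the osteoblast and osteocyte score, Gm37419 without wild-type 3, Igkv2-109 without wild-type 4 and Rpl30-ps9 without null 1.

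Leaving out 1 mouse gave -1.31 to -0.98 for Mmp13, -1.24 to -0.75 for Col10a1, -0.39 to -0.28 for Mef2c, -0.73 to -0.43 for Pth1r, -0.57 to -0.21 for Panx3, -0.55 to -0.10 for Ihh and -0.084 to 0.085 for Runx3. It gave 441 to 680 genes higher and 620 to 1355 lower, the fewest without wild-type 1 (620), null 1 (626) and null 5 (668), 3 to 5 of the 7 genes lower, and 0 to 1 called.

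Same-numbered mice did not deviate together (r from -0.14 to 0.056, best match with the own number in 0 of 5). No pairing by number was thus seen, though a check over all genes can miss a shared litter or batch. With the replicate block, 0 genes were called, and the limma p was 0.00273 for Mmp13, 0.00833 for Col10a1, 0.0423 for Mef2c and 0.0749 for Pth1r, with differences of -1.15, -1.02, -0.33 and -0.57.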
